A study of Mus musculus with 32 samples.

Results

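The genes that encode potassium channels were compared between 2 transgenic mouse models of medulloblastoma (MB), a malignant tumor of the cerebellum. Members were the protein-coding genes of the count table whose mouse symbol begins with Kcn followed by a letter from a to v, which left 92 genes of 37310 in the table. GMYC tumors (n = 6) came from Glt1-tTA/TRE-MYC mice and GTML tumors (n = 8) from mice with the same Glt1-tTA driver and a TRE-MYCN transgene. In both models the tetracycline transactivator is expressed from the Glt1 promoter, which is active in astrocytes and neural progenitors, and keeps the human oncogene switched on as long as doxycycline is withheld. All mice were on the FVB/N background, no tumor was treated, and the ages of the mice are not given in the labels. RNA was taken from fresh-frozen hindbrain tumor biopsies, so each value mixes tumor cells with the normal cells of the biopsy. The study set aside a GTML tumor with a signature of the Sonic Hedgehog (SHH) subgroup as an outlier. The labels do not say which tumor this was, so all 8 were kept, and the GTML group holds a tumor that the study did not count among its Group 3-like tumors. The labels number the tumors but name no mouse, and the p-values measure the spread between these samples. Per the methods of the study, GTML data were at least in part generated earlier, whereas the GMYC tumors were sequenced for it. The labels name no run, so a difference in sequencing occasion cannot be told apart from one between the models.

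Potassium channels let potassium leave the cell and so hold or restore the negative membrane potential. Voltage-gated channels open upon depolarization and repolarize neurons after an action potential, inward rectifiers and two-pore-domain channels set the resting potential and, in astrocytes, clear potassium from the extracellular space, and a further group opens in response to intracellular calcium or sodium. Auxiliary subunits carry no pore of their own and alter the trafficking and gating of the pore-forming subunits. In neural progenitors and brain tumors, channels of several of these families are also known for effects on cell volume and the cell cycle.

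Total counts ranged from 4602294 to 7279811 per tumor, and 21024 genes passed the filter of a CPM (counts scaled to library size) above 1 in at least 3 tumors. GTML tumor 2 stood apart, with the lowest summed level of photoreceptor markers (186 CPM, against 472 to 1740 in the other 13 tumors), and results that it changes most are given with and without it. By the percentage of their counts that fell on small nucleolar RNAs (snoRNAs), 2 sets of tumors could be told apart: GMYC tumors 1 to 4 and GTML tumors 1 and 2 (0.366% or more), and the other 8 tumors (0.272% or less). The split follows the order in which the tumors are listed in the series, with the higher set first, and the labels do not say what that order stands for. The highest count of any Y-linked gene was at most 8 in GTML tumors 2, 3, 5 and 8 and at least 361 in all others. The tumor markers fixed for the check, Otx2, Npr3, Syp and Tubb3, summed to between 527 and 768 CPM in every tumor, and 1 of the 4 was higher in GMYC. The sum does not describe each marker: Npr3 ran from 4.50 CPM in GMYC tumor 2 to 176.0 CPM in GTML tumor 2.

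The promoters of 4 members that the results turn on are shown for context: Kcnh2 and Kcnip2 had the smallest p-values of the members higher in GTML and in GMYC, respectively, and Kcnh4 and Kcnk5 are 1 called member of each direction that holds the E-box CACGTG, the sequence that MYC and MYCN are known to bind. The sequences are from RefSeq on GRCm38.p6 (C57BL/6J), while the counts were made on mm9 from FVB/N mice. Each runs from 250 bases before to 50 bases after the annotated start on the strand of the gene, and capitals mark an E-box.
Kcnh2 (chr5:24329542-24329841, minus strand): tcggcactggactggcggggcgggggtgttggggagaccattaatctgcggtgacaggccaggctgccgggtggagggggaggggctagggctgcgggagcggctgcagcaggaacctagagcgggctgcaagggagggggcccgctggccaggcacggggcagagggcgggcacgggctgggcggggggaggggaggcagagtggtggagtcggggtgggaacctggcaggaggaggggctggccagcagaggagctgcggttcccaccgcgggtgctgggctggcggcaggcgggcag
Kcnip2 (chr19:45816014-45816313, minus strand): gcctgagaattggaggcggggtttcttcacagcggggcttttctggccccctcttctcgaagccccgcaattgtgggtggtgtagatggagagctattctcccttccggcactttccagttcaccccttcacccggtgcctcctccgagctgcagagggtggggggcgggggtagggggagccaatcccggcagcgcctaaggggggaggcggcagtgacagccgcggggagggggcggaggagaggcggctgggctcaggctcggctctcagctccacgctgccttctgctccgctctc
Kcnh4 (chr11:100759729-100760028, minus strand): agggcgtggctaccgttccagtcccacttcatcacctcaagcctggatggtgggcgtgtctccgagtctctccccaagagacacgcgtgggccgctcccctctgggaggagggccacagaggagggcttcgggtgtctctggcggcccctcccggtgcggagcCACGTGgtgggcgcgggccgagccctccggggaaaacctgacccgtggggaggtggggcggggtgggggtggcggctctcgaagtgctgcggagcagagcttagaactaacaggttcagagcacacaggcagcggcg
Kcnk5 (chr14:20181733-20182032, minus strand): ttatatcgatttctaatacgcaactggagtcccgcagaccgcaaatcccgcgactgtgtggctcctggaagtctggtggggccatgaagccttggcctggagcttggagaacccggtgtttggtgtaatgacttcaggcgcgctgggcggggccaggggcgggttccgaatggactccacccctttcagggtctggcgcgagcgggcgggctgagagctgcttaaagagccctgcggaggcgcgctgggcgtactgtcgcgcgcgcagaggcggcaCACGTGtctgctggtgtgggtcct
The E-box lay before the start in Kcnh4 and after it in Kcnk5, and neither of the other promoters held these letters. CACGTG reads the same on both strands. It was found in 7 of 94 promoters of the 69 members that had a RefSeq promoter (7.45%), close to its share among all 32851 promoters (7.15%). Counted per gene, 6 of the 69 members held it in at least 1 promoter. Of the 15 called members with a promoter, 4 held it: Kcnab1, Kcne4 and Kcnh4, which were higher in GTML, and Kcnk5, which was higher in GMYC. A gene with several promoters has more chances of a match, and the share per gene over all genes was not taken. The count per gene therefore cannot be set against the 7.15%, and no enrichment is read from it. TAATCC, the core of the motif that OTX2 and the photoreceptor factor CRX are known to bind, was searched on both strands. It was found in 3 of 94 member promoters (3.19%) and in 7.06% of all promoters, with Kcng4 the only called member that held it. A match of this kind is a description of the sequence and not a bound site.

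Which potassium channel genes differ between MYC- and MYCN-driven tumors was asked with edgeR's quasi-likelihood test across all 21024 genes, with Benjamini-Hochberg adjustment and a call at an adjusted p below 0.05. Of the 92 members, 81 passed the filter, and 14 of these were higher in GTML and 5 were higher in GMYC. This is 23.5% of the members tested, where 21.2% of all genes and 20.0% of protein-coding genes were called. By direction, 11.5% of all genes were higher in GTML and 9.71% were higher in GMYC, and for protein-coding genes these shares were 12.2% and 7.81%. Members were thus called about as often as other genes, with a larger surplus on the GTML side: the log2 fold change (GTML over GMYC, as everywhere here) was positive in 56 of the 81 members (69.1%), against 52.5% of all genes and 54.7% of protein-coding genes. The median log2 fold change of the members was 0.56, while it was 0.04 over all genes tested and 0.06 over protein-coding genes. Because these are bulk biopsies, fewer cells of a type and less RNA per cell cannot be told apart in any of these values.

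Under the stricter rule of an adjusted p below 0.01 and an absolute log2 fold change above 1, which 3.22% of all genes met, the members were Kcnh2 and Kcnu1 (higher in GTML, as were 2.11% of all genes) and Kcnip2 (higher in GMYC, as were 1.1%). Without GTML tumor 2, which was left out of this fit, 25 of 80 members were called (31.2%, against 30.7% of all genes), among them all 19 called with it, and 7 members higher in GTML and 4 higher in GMYC met the stricter rule (4.96% and 2.8% of all genes in that fit). GTML tumor 2 was the lowest GTML tumor for 9 of the 14 members higher in GTML and the highest GTML tumor for 3 of the 5 members higher in GMYC. Within the 8 tumors with the lower snoRNA share, 13 members were called higher in GTML (as were 6.66% of all genes in this fit) and 4 higher in GMYC (as were 6.69%). Within the 6 tumors with the higher share, where GTML is represented by tumors 1 and 2, edgeR called 0 members in either direction, with 7 and 2 at an unadjusted p below 0.05; in that fit 2 of 18921 genes were called (0.0106%, both higher in GMYC). With a covariate from Y-linked genes, 8 members were called higher in GTML (as were 5.59% of all genes) and 2 higher in GMYC (as were 2.86%), where 8.45% of all genes were called in either direction. Kcna3, Kcnab1, Kcnc1, Kcne4, Kcng4, Kcnj12, Kcnj14, Kcnk3, Kcnk5 and Kcnmb2 lost their call in that fit, and limma-voom did not call Kcnc1, Kcng4, Kcnh4, Kcnj12 and Kcnmb2. A term for the snoRNA split gave 10 and 4 members, where 6.79% and 6.77% of all genes were called in these directions. The part of sex and of the snoRNA split in single results was not tested further.

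**Figure D1:**
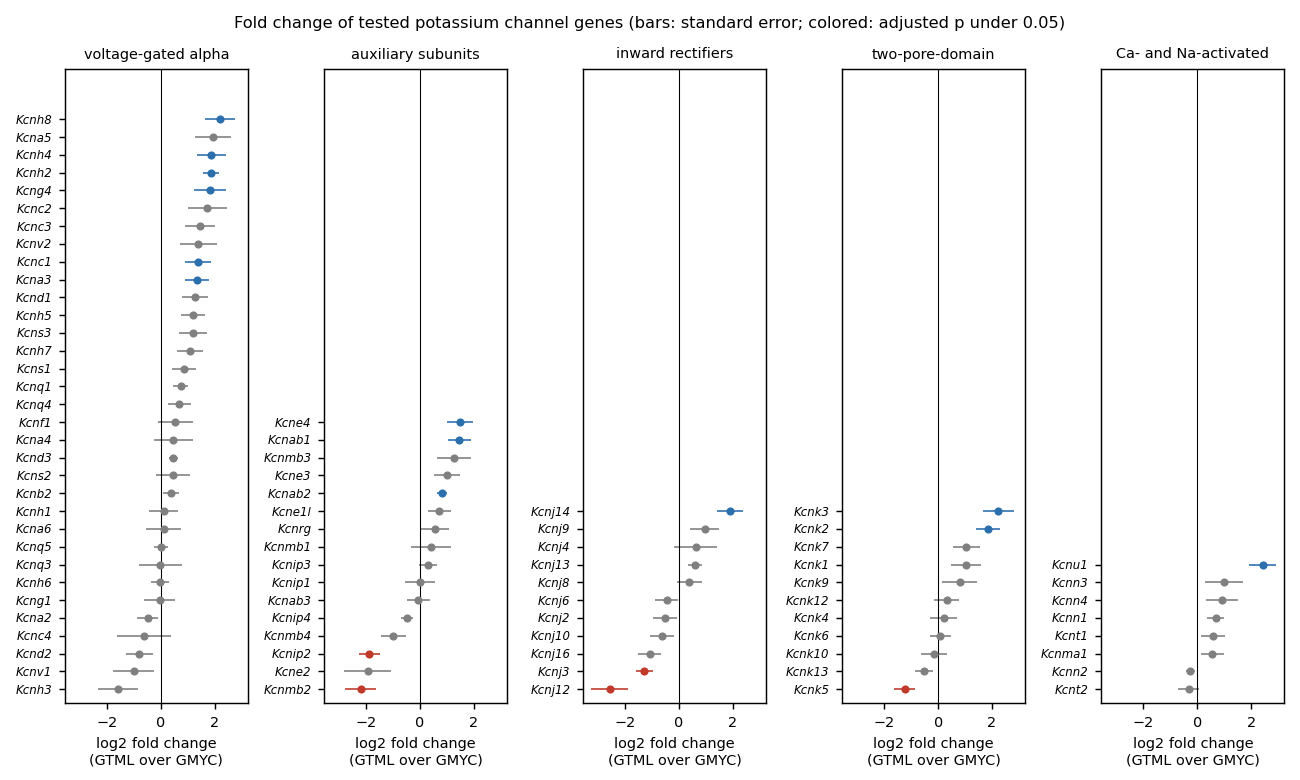
Log2 fold change (GTML over GMYC) with its standard error for 79 of the 81 tested potassium channel genes, in 5 panels by structural class, ordered by value. Blue points are genes called higher in GTML, red points genes called higher in GMYC and grey points genes not called; the called voltage-gated alpha subunits shown all lie to the right of 0.

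The remaining 11 members, Kcna7, Kcna10, Kcne1, Kcng2, Kcng3, Kcnj1, Kcnj5, Kcnj15, Kcnk15, Kcnk16 and Kcnk18, had between 3 and 71 counts over all 14 tumors and were not tested. None of the 92 members was at 0 in every tumor. Exons of 7 members overlap those of another gene over more than 10% of their length, among the called genes Kcnj3 (31.1%, with Gm26794) and Kcnk2 (12.2%, with A430027H14Rik), both on the opposite strand. The handling of strand in the counting is not given in the sources used here, so reads from such pairs cannot be told apart.

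Voltage-gated alpha subunits were the largest class and, when called, were higher in GTML. Of 39 members, 35 were tested, 7 were higher in GTML and 0 were higher in GMYC by edgeR at this threshold, while 16 and 1 had an unadjusted p below 0.05. By edgeR 20.0% of the class was thus called, beside 21.2% of all genes and 20.0% of protein-coding genes. Of all genes, 11.5% were called higher in GTML and 9.71% higher in GMYC. DESeq2 called 14 and 0 of the class, where it called 15.7% and 12.1% of all genes in these directions, and limma-voom called 6 and 0, where it called 9.99% and 11.4% of all genes. The median log2 fold change of the class was 0.69, with a range from -1.59 to 2.19.

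The ether-a-go-go family, the Kcnh genes, contributed 3 of the 7 calls of the class among its 8 tested members (37.5%, beside 21.2% of all genes in either direction). Kcnh2 encodes the ERG channel, a delayed rectifier that repolarizes the heart and is found in neurons and many tumor lines. Its level ran from 3.98 to 12.6 CPM in GMYC tumors (median 8.47) and from 14.6 to 42.5 CPM in GTML tumors (median 30.6). Every GTML tumor lay above every GMYC tumor, although GTML tumor 2 was the lowest of its model. A separation in this direction was seen in 2.14% of all genes and in 4 of the 81 members tested. The log2 fold change was 1.87 (SE 0.29, adjusted p = 0.00213 by edgeR), a 3.66-fold difference, and it was 1.76 within the tumors with the higher snoRNA share and 1.53 within those with the lower. Kcnh8, an ELK-type channel that activates at negative potentials, was low in both models, at 0.141 to 1.27 CPM in GMYC (median 1.10) and 0.488 to 6.98 CPM in GTML (median 3.95). All GTML tumors except tumor 2 were above all GMYC tumors, and the log2 fold change was 2.19 (SE 0.56, adjusted p = 0.0148). Kcnh4, a further ELK-type gene, which falls outside the naming rule and was chosen after its values were seen, as were Kcna3, Kcng4 and Kcnc1, had a log2 fold change of 1.88 (SE 0.55, adjusted p = 0.0254).

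Kcnh6, the ERG-type gene with the highest level of the family, did not follow Kcnh2. It ranged from 61.9 to 115.8 CPM in GMYC (median 80.7) and from 20.7 to 193.5 CPM in GTML (median 78.9), and its log2 fold change was -0.03 (SE 0.33, adjusted p = 0.950). The GTML range enclosed the GMYC range, with GTML tumor 2 the lowest and GTML tumor 4 the highest of all 14. The difference in fold change between Kcnh2 and Kcnh6 was not tested.

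Kcng4 encodes a silent subunit that forms channels only together with other alpha subunits. It measured 2.14 to 16.3 CPM in GMYC (median 5.92) and 4.55 to 74.4 CPM in GTML (median 22.3). The ranges overlapped, with 5 GTML tumors above all GMYC tumors, tumor 2 the lowest of its model and tumor 3 the highest. The log2 fold change was 1.84 (SE 0.60, adjusted p = 0.0406), or 1.44 without GTML tumor 3 (adjusted p = 0.0781).

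Kcnv2, a silent subunit known from photoreceptors, was chosen after its values were seen because GTML tumor 3 reached 177.7 CPM. In the other GTML tumors it started at 4.23 CPM in tumor 2, the model median was 38.5 CPM, and GMYC tumors ranged from 6.19 to 38.8 CPM (median 15.9). The models overlapped and the gene was not called (log2 fold change 1.40, SE 0.69, adjusted p = 0.15). GTML tumor 3 also had the highest sum of the 8 photoreceptor markers (1740 CPM), and GTML tumor 2 the lowest (186 CPM). Of these 8 markers 5 were higher in GTML (among them Sag, Pde6b, Gnat1 and Rcvrn) and 0 were higher in GMYC (by limma-voom 1 and 0), none was at 0 in every tumor, and the list summed to 472 to 642 CPM in GMYC. The part of photoreceptor-like RNA in the values of Kcng4 and Kcnv2 was not tested.

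Kcnc1, a Kv3 channel that closes fast and supports high firing rates, and Kcna3, the Kv1 channel of lymphocytes and microglia, were among the other called alpha subunits. For Kcnc1 the log2 fold change was 1.39 (SE 0.46, adjusted p = 0.0447), with 23.2 to 78.8 CPM in GMYC (median 41.9) and 29.3 to 233.9 CPM in GTML (median 122.9). The models overlapped for Kcnc1, and 5 GTML tumors lay above all GMYC tumors. Its call held in 4 of the 14 fits that left out 1 tumor and was lost with limma-voom (adjusted p = 0.122), and within the tumors with the higher snoRNA share its log2 fold change was -0.18. Kcna3 was low but separated the models without overlap, from 0.424 to 4.78 CPM in GMYC (median 2.11) and from 5.35 to 7.41 CPM in GTML (median 6.11), with a log2 fold change of 1.36 (SE 0.44, adjusted p = 0.0391). The 8 microglial markers summed to 194 to 316 CPM in GMYC and 100 to 399 CPM in GTML. By edgeR, DESeq2 and limma-voom 0 of 8 were called. At an unadjusted p below 0.05 there were 0 by edgeR and 1, higher in GMYC, by limma-voom. Lymphocyte markers were not examined, and the part of microglia or lymphocytes in the values of Kcna3 was not tested.

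Kcnd3, a Kv4 channel that carries the transient A-type current, had the highest level per exon length of all members, at 35.6 CPM per kilobase or 11.5% of the summed level of the 92 genes. It ranged from 241.2 to 323.4 CPM in GMYC (median 278.9) and from 192.6 to 495.8 CPM in GTML (median 391.7). In GTML 7 of 8 tumors lay above all GMYC tumors, and tumor 2 lay below all of them. The gene missed the threshold with all 8 GTML tumors (log2 fold change 0.46, SE 0.16, adjusted p = 0.0514) and passed it without GTML tumor 2 (0.56, SE 0.10, adjusted p = 0.00241).

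**Figure D2:**
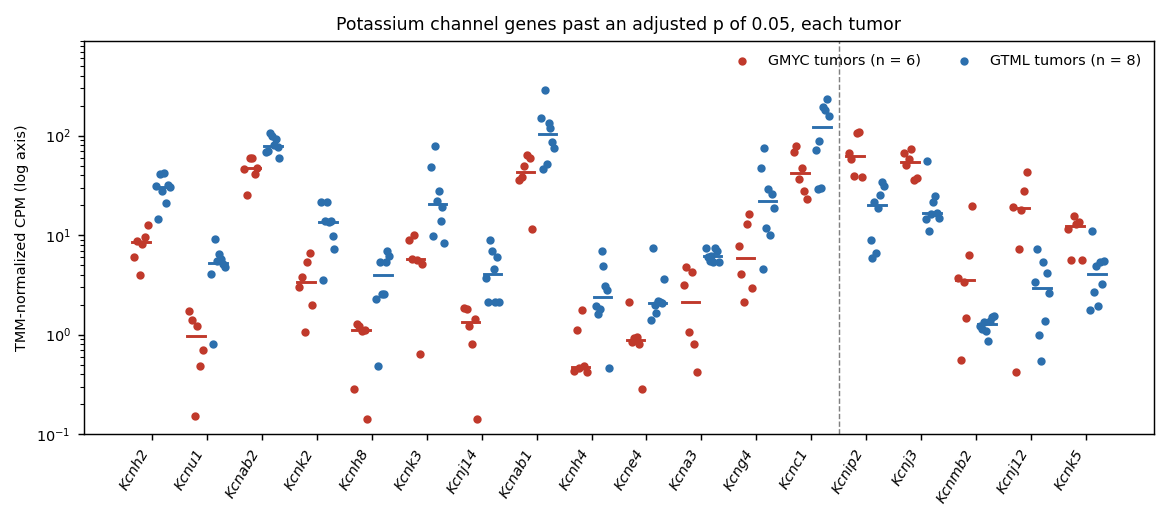
TMM-normalized CPM (log axis) of 18 of the 19 called potassium channel genes in each GMYC tumor (red, n = 6) and GTML tumor (blue, n = 8), with the model median as a bar. Genes left of the dashed line were higher in GTML, in order of p, and genes right of it higher in GMYC. Kcnh2, Kcnab2, Kcnj14, Kcna3 and Kcnip2 show no overlap between the models. Of all genes tested, 2.14% had every GTML tumor above every GMYC tumor and 2.48% had the reverse.

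Auxiliary subunits moved in both directions: of 17 members 16 were tested, 3 were higher in GTML and 2 were higher in GMYC (31.2% of those tested, beside 21.2% of all genes). Kcnab1 and Kcnab2 encode beta subunits that bind the cytoplasmic face of Kv1 channels and are related to aldo-keto reductases. For Kcnab2 the GMYC tumors held 25.2 to 59.5 CPM (median 46.8) and the GTML tumors 59.8 to 106.3 CPM (median 79.3). The models did not overlap, but by a margin of less than 1 CPM. The log2 fold change was 0.82 (SE 0.19, adjusted p = 0.00979), the smallest absolute value among the 19 called members. Kcnab1 spread more widely, from 11.5 to 64.3 CPM in GMYC (median 43.6) and from 46.5 to 288.0 CPM in GTML (median 103.2), and its log2 fold change was 1.46 (SE 0.42, adjusted p = 0.0239). Without GTML tumor 3, its highest tumor, the value was 1.14 (adjusted p = 0.0396). Kcne4, a single-span subunit that inhibits several Kv channels, was at 0.283 to 2.15 CPM in GMYC (median 0.881) and 1.41 to 7.48 CPM in GTML (median 2.11), with a log2 fold change of 1.496 (SE 0.47, adjusted p = 0.0347). Its highest tumor was GTML tumor 2, without which the value was 1.11 (adjusted p = 0.0450).

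Kcnip2 had the smallest p of the members higher in GMYC. It encodes a calcium-binding protein that brings Kv4 channels to the membrane and shapes their inactivation. GMYC tumors ranged from 38.3 to 109.6 CPM (median 62.8) and GTML tumors from 5.86 to 34.3 CPM (median 20.2). Every GMYC tumor lay above every GTML tumor, which was the case for 2.48% of all genes, and GTML tumor 2 was the lowest. The log2 fold change was -1.88 (SE 0.40, adjusted p = 0.00754), or -3.18 within the tumors with the higher snoRNA share and -1.70 within those with the lower. The related Kcnip1, Kcnip3 and Kcnip4 were not called, with log2 fold changes of 0.01, 0.28 and -0.48. Kcnmb2, which inactivates the large-conductance calcium-activated channel, was also higher in GMYC (log2 fold change -2.20, SE 0.57, adjusted p = 0.0157). Its GMYC values ran from 0.563 to 19.8 CPM (median 3.55) and its GTML values from 0.862 to 1.53 CPM (median 1.28), with the GTML tumors inside the GMYC range. Without GMYC tumor 6, the highest, the log2 fold change was -1.27 (adjusted p = 0.0534) and the gene was no longer called. Kcne1l, an X-linked MinK-type subunit with the highest level per exon length of the class (14.8 CPM per kilobase), was not called (log2 fold change 0.72, SE 0.42, adjusted p = 0.222).

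Inward rectifiers were the 1 class whose median log2 fold change was negative, at -0.45. Of 14 members 11 were tested, 1 was higher in GTML and 2 were higher in GMYC (27.3% of those tested, beside 21.2% of all genes). Kcnj3 encodes a subunit of the G-protein-gated channel through which inhibitory transmitters slow neurons. It ranged from 35.9 to 73.7 CPM in GMYC (median 54.7) and from 10.98 to 55.6 CPM in GTML (median 16.6). All GTML tumors except tumor 2 lay below all GMYC tumors, and the log2 fold change was -1.30 (SE 0.32, adjusted p = 0.0130), or -1.65 without GTML tumor 2 (adjusted p = 0.000786). Partners of Kcnj3 in the same channel, Kcnj6 and Kcnj9, were not called, with log2 fold changes of -0.45 and 0.95 (adjusted p = 0.459 and 0.207). Kcnj12, a strong rectifier of the kind that clamps the resting potential, spread over a wide range in GMYC (0.422 to 43.0 CPM, median 18.6) and stayed between 0.547 and 7.32 CPM in GTML (median 2.97). Its log2 fold change of -2.58 (SE 0.68, adjusted p = 0.0166) was the lowest of all members in this fit, although GMYC tumor 2 was below every GTML tumor, and it was -1.05 within the tumors with the higher snoRNA share and -3.84 within those with the lower. Kcnj12 was not called by limma-voom (-2.08, adjusted p = 0.122) or with the Y-linked covariate (-2.98, adjusted p = 0.0661). Kcnj14, a rectifier of the same subfamily described in motor neurons and the retina, went the other way without overlap, from 0.141 to 1.87 CPM in GMYC (median 1.34) and from 2.11 to 8.99 CPM in GTML (median 4.11), with a log2 fold change of 1.89 (SE 0.49, adjusted p = 0.0157).

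Kcnj10 encodes the main potassium-buffering channel of astrocytes, and a difference between the models was not detected for it. It ranged from 9.19 to 48.8 CPM in GMYC (median 15.2) and from 3.65 to 29.9 CPM in GTML (median 14.7). The ranges overlapped widely, and the log2 fold change was -0.62 (SE 0.44, adjusted p = 0.314). It was -0.89 within the tumors with the higher snoRNA share and 0.56 within those with the lower, so its sign depended on the side. The 10 astrocyte markers, which sum to 807 to 1400 CPM in GMYC and 548 to 972 CPM in GTML, gave 0 calls by edgeR (2 at an unadjusted p below 0.05, both higher in GMYC) and 1 by DESeq2. GMYC tumor 4 was the highest tumor for both the list and Kcnj10, and GTML tumor 4 the lowest for both. GMYC tumor 6, the lowest GMYC tumor for Kcnj10, had a list sum of 1040 CPM, above the GMYC median of 1030 CPM. The relation between Kcnj10 and the list was not tested. Kcnj13, the rectifier of choroid plexus and retinal pigment epithelium, had a log2 fold change of 0.58 (SE 0.27, adjusted p = 0.122), but 49.1% of its exon length overlaps Gigyf2 on the opposite strand.

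Two-pore-domain channels conduct at rest and respond to acid, stretch and anesthetics. Of 14 members 11 were tested, 2 were higher in GTML and 1 was higher in GMYC (27.3% of those tested, beside 21.2% of all genes). Kcnk2, a stretch-sensitive channel, was at 1.07 to 6.60 CPM in GMYC (median 3.41) and 3.58 to 21.5 CPM in GTML (median 13.7). All GTML tumors except tumor 2 lay above all GMYC tumors, with a log2 fold change of 1.84 (SE 0.44, adjusted p = 0.0118). Kcnk3, an acid-inhibited background channel, measured 0.644 to 10.1 CPM in GMYC (median 5.71) and 8.25 to 78.0 CPM in GTML (median 20.6), with 6 GTML tumors above all GMYC tumors. Its log2 fold change was 2.24 (SE 0.57, adjusted p = 0.0149), and 1.83 without GTML tumor 3, its highest tumor (adjusted p = 0.0250). Kcnk5, an alkaline-activated channel of kidney and brainstem chemosensory neurons, ran in the other direction, from 5.63 to 15.6 CPM in GMYC (median 12.3) and from 1.76 to 11.1 CPM in GTML (median 4.07). In GTML 7 of 8 tumors lay below all GMYC tumors, the exception being tumor 2, and the log2 fold change was -1.24 (SE 0.40, adjusted p = 0.0379), or -1.57 without GTML tumor 2 (adjusted p = 0.00597). Kcnk1, which shared the highest levels per exon length in the class with Kcnk3, was not called (log2 fold change 1.04, SE 0.55, adjusted p = 0.175).

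Of the 8 genes grouped by symbol as calcium- and sodium-activated channels, all were tested. By edgeR, DESeq2 and limma-voom alike, 1 was higher in GTML and 0 were higher in GMYC, and by edgeR 2 and 0 had an unadjusted p below 0.05. By edgeR 12.5% of the class was called, beside 21.2% of all genes. The called gene was Kcnu1, whose channel is best known from sperm, where it opens at alkaline pH and not with calcium or sodium. No other gene of the class was called, so the class result is that of Kcnu1 alone. Kcnu1 was low, at 0.153 to 1.72 CPM in GMYC (median 0.960) and 0.813 to 9.15 CPM in GTML (median 5.28). The GTML tumors other than tumor 2 lay above all GMYC tumors, and the log2 fold change of 2.42 (SE 0.50, adjusted p = 0.00702) was the highest of all members. The paralog Kcnma1, the pore of the large-conductance calcium-activated channel of neurons, was not called (log2 fold change 0.56, SE 0.43, adjusted p = 0.355). Kcnn1, a small-conductance channel that follows calcium entry, had a log2 fold change of 0.68 (SE 0.31, adjusted p = 0.115) and passed the threshold without GTML tumor 2 (0.84, SE 0.19, adjusted p = 0.00646).

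**Figure D3:**
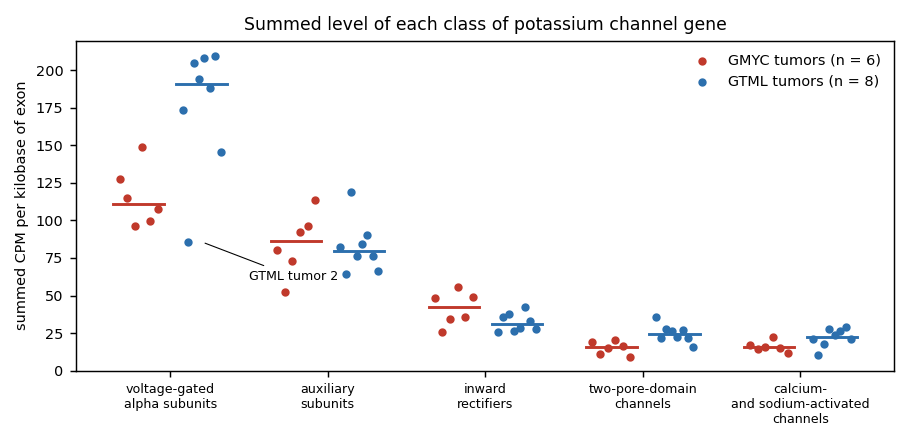
Summed level of each class, in CPM per kilobase of exon added over its members, in each GMYC tumor (red, n = 6) and GTML tumor (blue, n = 8), with the model median as a bar. For the voltage-gated alpha subunits the GTML median is 191.1 and the GMYC median 111.1, and GTML tumor 2, at 85.7, lies below all GMYC tumors.

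Levels were compared between genes per kilobase of exon. All members together summed to 218.5 to 339.5 CPM per kilobase in GMYC (median 276.6) and to 218.4 to 407.2 CPM per kilobase in GTML (median 358.9). The voltage-gated alpha subunits made up the largest part, from 96.2 to 148.7 CPM per kilobase in GMYC and from 85.7 to 209.6 CPM per kilobase in GTML. For this class 6 of the 8 GTML tumors lay above the highest GMYC tumor, tumor 8 fell within the GMYC range and tumor 2 below it. The inward rectifiers summed to 25.9 to 55.5 CPM per kilobase in GMYC and 25.9 to 42.3 CPM per kilobase in GTML, with overlapping ranges. The 10 members with the highest level held 47.3% of the summed level, and the 19 called members held 26.8%. After Kcnd3 and Kcnh6 (23.5 CPM per kilobase over all tumors) the members with a high level included Kcne1l (14.8), Kcnab2 (11.99) and Kcnip2 (11.8). Kcnip2 itself averaged 20.2 CPM per kilobase in GMYC and 5.47 CPM per kilobase in GTML, whereas its partner gene Kcnd3 averaged 29.2 and 40.3 CPM per kilobase.

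**Figure D4:**
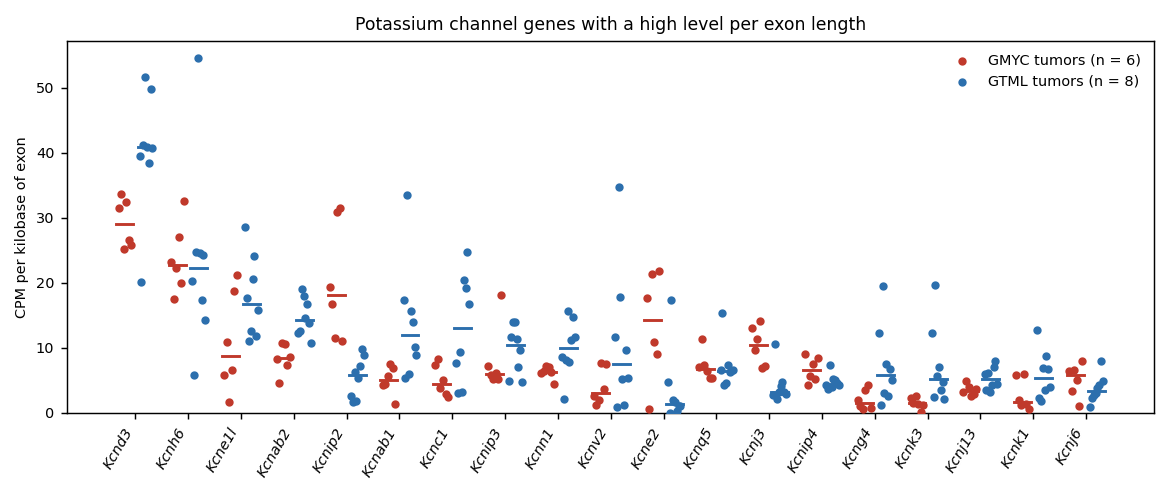
Level per exon length (CPM per kilobase) of 19 of the 20 members with the highest mean over all 14 tumors, in each GMYC tumor (red, n = 6) and GTML tumor (blue, n = 8), with the model median as a bar. Kcnd3 has the highest level in both models, and GTML tumor 2 is its lowest tumor.

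Genes that work with these channels were examined as a list of 55 partner and transport genes, of which 50 were tested, 9 were higher in GTML and 4 were higher in GMYC (26.0%, beside the 21.2% of all genes). Their median log2 fold change was 0.17. Hcn3 encodes a relative of the potassium channels that opens upon hyperpolarization and carries a pacemaker current. It was higher in GTML without overlap, at 5.74 to 32.7 CPM in GMYC (median 15.7) and 34.4 to 77.3 CPM in GTML (median 61.2), with a log2 fold change of 1.80 (SE 0.35, adjusted p = 0.00581). The sodium, potassium and chloride cotransporter gene Slc12a1 (log2 fold change 1.66, SE 0.36, adjusted p = 0.00785) and Wnk4, a kinase that regulates such cotransporters (1.27, SE 0.28, adjusted p = 0.00893), were higher in GTML. Slc12a1 was near the floor, at 0.283 to 1.005 CPM in GMYC and 1.464 to 3.057 CPM in GTML, with 2 to 20 counts per tumor. The proton pump subunit gene Atp4a (-1.78, SE 0.50, adjusted p = 0.0218) and the sodium pump subunit gene Atp1b3 (-0.74, SE 0.24, adjusted p = 0.0382) were higher in GMYC. Without GMYC tumor 6 the value for Atp4a was -1.04 (adjusted p = 0.0782). Atp1b3 was called in 4 of the 14 fits that left out 1 tumor, with an adjusted p of up to 0.0842.

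Of the 18 channel partners tested, 2 were higher in GTML and 0 were higher in GMYC by edgeR (4 and 1 at an unadjusted p below 0.05), while DESeq2 gave 3 and 1 and limma-voom 2 and 1. By edgeR 11.1% of the partners tested were called, beside 21.2% of all genes. The 2 called by edgeR were named after their values were seen. Dpp6, the transmembrane partner of Kv4 channels, had a log2 fold change of 0.75 (SE 0.18, adjusted p = 0.0111), a direction opposite to that of Kcnip2, which binds the same channels. Amigo1, a membrane protein that partners with voltage-gated channels, had a log2 fold change of 0.83 (SE 0.22, adjusted p = 0.0171).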

How the data were processed

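RNA-seq of 6 GMYC and 8 GTML tumor biopsies was used, with the GTML data at least in part from earlier work. Per the methods of the study, Ion Torrent reads were aligned to mm9 with STAR and then Bowtie and counted per gene with featureCounts on GENCODE. The submitters' processing notes name STAR 2.4.0, Bowtie2 2.2 and Subread 1.5.2, and the methods of the study give later versions of both aligners, so the versions used are uncertain. The authors deposited whole-number counts without normalization. Handling of strand and of duplicate reads is not given in the sources used here. A further 18 columns of per-sample counts that match no label were not used.

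GENCODE M21 (GRCm38) gave the symbol, gene type and exon length, matched by identifier for 32620 of 37310 genes (87.4%). Counts were TMM-normalized and tested with edgeR 4.0.16 in R 4.3.3 (quasi-likelihood, model as the only term, CPM above 1 in at least 3 tumors, Benjamini-Hochberg adjustment over 21024 genes). CPM values are TMM-normalized, and standard errors were derived from the F statistic. No 2 tumors of the same model were closer than sampling noise allows (chi-square per degree of freedom at least 5.67). In simulated counts for this comparison, 178 of 200 genes changed by 1.5 on the log2 scale were called (89%), and 7 unchanged genes were called, among 21024 genes in all. The changed genes were drawn only from those above a minimum mean level, and all genes were given the same dispersion. The share recovered therefore does not describe members at a few counts or with a wide spread between tumors. With 4602294 to 7279811 counts per tumor, genes at a few counts carry wide errors.

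Members and lists were chosen with earlier results of these data known. Not every gene with a symbol of this pattern, or named by the rule that follows, is reported here. Genes were named by rule: Kcnj10, members past the stricter thresholds, in each class the 3 with the smallest p in each direction among those called and the 2 with the highest level per exon length, and the 3 partner genes with the smallest p in each direction. Lists of tumor, astrocyte, oligodendrocyte, oligodendrocyte precursor, microglia, endothelium, pericyte, granule neuron, Purkinje neuron, choroid plexus, photoreceptor and muscle markers were summed as CPM. Alternatives were DESeq2 1.42.0, limma-voom (limma 3.58.1), other normalizations and filters, a replicate block, leaving out each tumor, an snoRNA term at 0.3%, each side of that split, a Y-linked covariate, a stricter rule and, added after the data had been seen, the newer edgeR dispersion. Figures were drawn with matplotlib 3.10.9.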

Additional observations from a re-analysis of the deposited data

Results flagged for a closer look

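Within each model, the highest and lowest tumor of every named member were compared with their nearest neighbor by Dixon's criterion. A tumor far from the others was found in 9 of 54 groups examined. The criterion would give 2.7 by chance if values were normally distributed and groups independent. The values were untransformed CPM of the same tumors for every gene, and some genes were named by their p-values. The 9 therefore cannot be set against the 2.7, and no excess is read from them. Of the 9, 4 were GTML tumor 2. In that tumor Kcnj3 (55.6 CPM, next tumor 24.8), Kcnk5 (11.1 CPM, next 5.50) and Kcne4 (7.48 CPM, next 3.67) were the highest of the GTML tumors, and Kcnd3 (193 CPM, next 369) was the lowest. Kcnab1 was highest in GTML tumor 3 (288 CPM, next 149), and Kcnh6 was highest in GTML tumor 4 (194 CPM, next 87.7). Among GMYC tumors, Kcnma1 was highest in tumor 4 (97.3 CPM, next 38.3), Kcnmb2 in tumor 6 (19.8 CPM, next 6.28) and Kcne4 in tumor 1 (2.15 CPM, next 0.943).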

How the results depend on the processing

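The members called higher in GTML and in GMYC (14 and 5) numbered 21 and 5 with DESeq2, 13 and 3 with limma-voom and 2 and 1 under the stricter rule, and other normalizations, filters and the newer dispersion gave 14 to 17 and 5. With a Y-linked covariate there were 8 and 2, for partner genes 4 and 1, and with the snoRNA term 10 and 4, for partner genes 7 and 1. In tumors with the higher snoRNA share all 4 counts were 0. With the replicate number as a block the members called fell to 1 and 1 (Kcnab2 and Kcnip2) and partner genes to 1 and 0. The numbers are not known to pair tumors: the correlation of deviations between same-numbered tumors ran from -0.208 to 0.239, and of the 6 GMYC tumors tumor 1 alone correlated best with its own number. Leaving out each tumor gave 9 to 20 members higher in GTML and 4 to 7 higher in GMYC, and 7 to 12 and 1 to 5 partner genes. The 9 came without GMYC tumor 3, and the 7 without GMYC tumor 2. For partner genes higher in GMYC, 1 was left without GMYC tumor 6, and 2 without each of GMYC tumors 1, 3 and 5 and GTML tumors 3, 4, 5, 7 and 8. The share of all genes called is not given here for the replicate block. Among the fits that left out 1 tumor, it is given only for the fit without GTML tumor 2. These counts can move with the calls over all genes, and no result particular to the members is read from them. Of the called members, 12 were called in all 14 of these fits. Kcnmb2 was called in 13, Kcnh4 in 10, Kcne4 in 8, Kcna3, Kcng4 and Kcnk5 in 6 each and Kcnc1 in 4, with adjusted p up to 0.0938. Over single genes and settings, 697 values kept direction and call, 140 lost the call, 8 gained it and 13 changed sign. Signs changed in tumors with the higher snoRNA share for Atp1b3 (0.0148), Kcnc1 (-0.181), Kcnd3 (-0.0306) and Kcnn1 (-0.3), in those with the lower share for Kcne1l (-0.33), Kcnh6 (0.00776) and Kcnj10 (0.564), and for Kcnh6 with the Y-linked covariate (0.295) and in 5 fits without 1 tumor (up to 0.113; over all 14 such fits its value ran from -0.342). The cause was not tested. Genes at a few counts per tumor, such as Kcnh8, Kcnu1, Kcnj14, Kcne4, Kcnh4 and the partner gene Slc12a1, are the least precise.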

Other observations

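Some markers of other cell types were called by edgeR. Of 6 granule neuron markers, Fat2 and Cbln3 passed the threshold (log2 fold changes -3.96 and -3.39, adjusted p = 0.0406 and 0.0350), while limma-voom called 0. GMYC tumor 1 reached 169.1 CPM for Fat2 and 62.6 CPM for Cbln3, and the medians ran the other way, 0.494 CPM in GMYC and 1.78 CPM in GTML for Fat2 and 0.907 and 1.11 CPM for Cbln3. The granule neuron list summed to 126 to 470 CPM in GMYC, with GMYC tumor 1 the highest, and to 73.5 to 214 CPM in GTML. Of 5 oligodendrocyte precursor markers 2 were higher in GMYC by edgeR and 0 by limma-voom (2 at an unadjusted p below 0.05), with sums of 62.8 to 136 CPM in GMYC and 25.2 to 122 CPM in GTML, and of 8 oligodendrocyte markers 1 was higher in GTML, with sums of 111 to 300 and 108 to 309 CPM. Markers of endothelium, pericytes, Purkinje neurons, choroid plexus and muscle gave 0 calls by edgeR, with 0, 0, 2, 1 and 1 at an unadjusted p below 0.05, and DESeq2 called 2 Purkinje neuron markers, both higher in GMYC. The part of these cells in the values of the potassium channel genes was not tested.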
